A study of Stropharia rugosoannulata with 3 samples.

Results

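The 150 gene models of *Stropharia rugosoannulata* with the most abundant transcripts in growing mycelium were selected on their mean FPKM over 3 libraries, out of 11750 gene models. FPKM scales the fragments sequenced from a gene by gene length and by library depth. SRUG_11529 and SRUG_01647, with means of 3913 ± 502 and 1694 ± 234 FPKM (SD, n = 3), also reach this level and were left out by the rule. The study draws the former among its non-heme peroxidases and the latter as an NADPH oxidase. Because the FPKM of all 3 libraries chose the members, their levels and shares are a description, and no test was made on them.

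The libraries are replicates of a single group, mycelium of the cultivar strain Heinong No.1 kept on potato dextrose agar plates at 25 °C, with RNA from an OMEGA plant kit. The sample titles name S68, which is a single-spore monokaryotic isolate of this strain, so the culture may stand for 1 isolate. The study's methods name another reagent for total RNA, TRIzol, next to a liquid culture of S68. The labels do not say whether the libraries came from separate cultures, and the spread between them may be technical in part. Library totals ran from 29678333 to 31831513 counts. In the spread of the counts, library 2 stood apart from libraries 1 and 3. The biological coefficient of variation (BCV, the spread beyond counting noise that a count model estimates), common to all tested models, was 0.304 over the 3 libraries. It was 0.304, 0.238 and 0.345 without libraries 1, 2 and 3.

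In a growing mycelium, the most abundant messenger RNAs usually come from a small set of genes. Genes for ribosomal proteins and translation factors, for core energy metabolism, for histones and ubiquitin, and for small proteins of the cell surface and wall such as hydrophobins are typical of this set in fungi. The deposited tables pair each model with a name and a place on a contig but with no function, so no member can be assigned to any of these classes here. Of the 10 genes that the study names in its text, 0 were members, while 1.28% of all gene models were, so this count is no result about those genes. The highest of them, SRUG_02817, a hybrid ascorbate-cytochrome c peroxidase, followed at rank 428 with 317 FPKM.

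The members are 1.28% of all gene models and held nearly a constant share of the transcriptome in every library. They took 31.2%, 31.2% and 31.7% of the summed FPKM in libraries 1, 2 and 3, or 31.4% ± 0.328 (SD, n = 3). Of the counts, which are not corrected for length, they took 19.97%, 19.85% and 20.1%, or 19.97% ± 0.123 (SD, n = 3). Within the list the levels were steeply graded. The first 10 members alone had 9.78%, 10.3% and 9.85% of all FPKM, and 25, 26 and 28 members made up 50% of the members' own FPKM. Across all models, 493, 512 and 511 models were needed to reach 50% of the FPKM. The median of the members' mean FPKM was 1174, against 23.9 over all models. Means above 10000 FPKM were seen for 3 members, above 5000 for 11, above 2000 for 26 and above 1000 for 93.

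**Figure D1:**
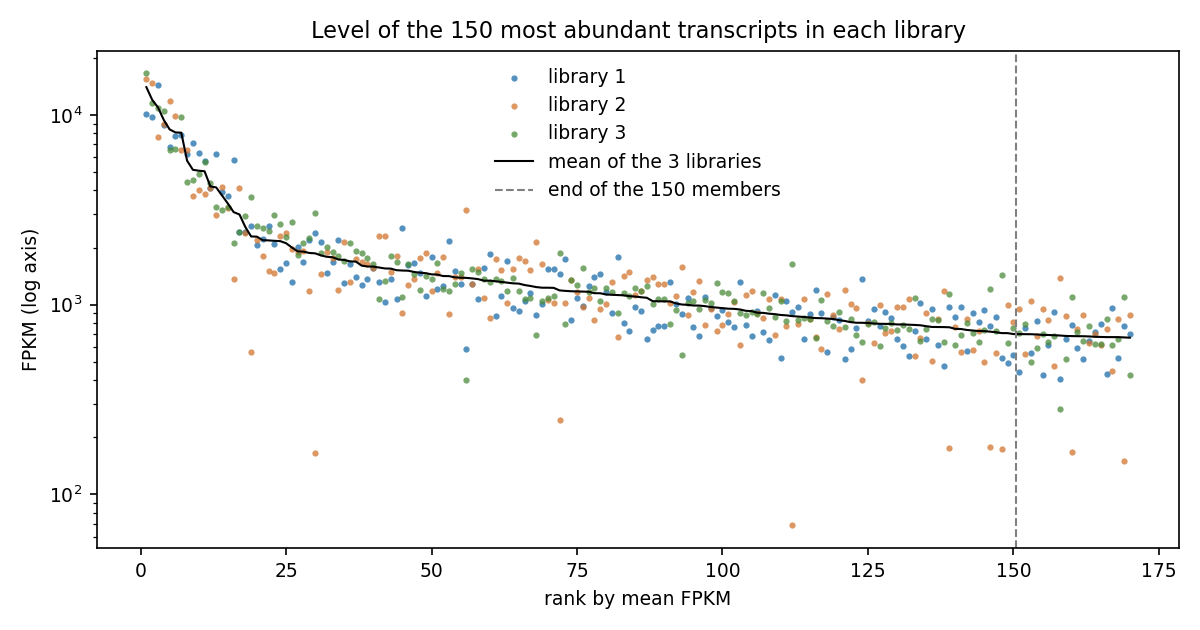
FPKM on a log axis against the rank by mean FPKM for the 150 members and the 20 models ranked after them; points are the 3 libraries and the line is their mean. The mean falls from 13998 to 700 FPKM over the members and passes the end of the list without a step, and the points far under the line are mostly those of library 2.

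SRUG_08403, model 490 of contig 9, led the list. It had 10070.2, 15372 and 16551 FPKM in libraries 1, 2 and 3, with a mean of 13998 ± 3452 (SD, n = 3), and was first in libraries 2 and 3 and the second in library 1. SRUG_03729, model 1079 of contig 3, had 9782, 14733 and 11512 FPKM, or 12009 ± 2513 (SD, n = 3). SRUG_03594, model 942 of the same contig, had 14318, 7687 and 10827 FPKM, or 10944 ± 3317 (SD, n = 3), and led library 1. The values of these 3 models overlapped between libraries, and their order was not resolved.

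SRUG_09588 on contig 11 followed with 8824, 8904 and 10464 FPKM and was the steadiest of the first 10 members, at 9397 ± 925 (SD, n = 3). SRUG_11169 on contig 16 had 6806, 11829 and 6508 FPKM and was thus highest in library 2. SRUG_06302 on contig 6 also peaked there, with 7744, 9876 and 6624 FPKM. SRUG_00955 on contig 1 was lowest in library 2 instead, with 7876, 6533 and 9756 FPKM. These last 3 models had means of 8381 ± 2990, 8081 ± 1652 and 8055 ± 1619 FPKM (SD, n = 3 each), which differ by less than their spread.

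The next means were lower, although single values overlapped, since SRUG_01710 was above SRUG_11169 in library 1 and SRUG_06769 above SRUG_00955 in library 2. SRUG_06769 on contig 7 had a mean of 5734 ± 1140 FPKM (SD, n = 3), with its lowest value, 4430.2, in library 3. SRUG_01710 on contig 2, SRUG_07697 on contig 8 and SRUG_06351 on contig 6 had means of 5135 ± 1757, 5079 ± 1143 and 5046 ± 1070 FPKM (SD, n = 3 each) and were not resolved from each other. Each of the 3 was lowest in library 2. SRUG_00979 on contig 1 had 4109, 4116 and 4369 FPKM, which is among the smallest spreads of the list. SRUG_10051 on contig 12 stood against it with nearly the same mean, 4148 ± 1785 FPKM (SD, n = 3), from 6201, 2963 and 3280 FPKM.

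The members from rank 14 to 20 ran from 3759 ± 530 FPKM (SD, n = 3; SRUG_07567, contig 8) to 2281 ± 271 (SD, n = 3; SRUG_10782, contig 14). Between them, SRUG_09985 on contig 12 and SRUG_10377 on contig 13 were steady, at 3412 ± 294 and 2568 ± 302 FPKM (SD, n = 3 each). SRUG_03267 on contig 3 was highest in library 2, with 2419, 4138 and 2401 FPKM. The other 2 of the first 20, SRUG_03036 and SRUG_03430, both on contig 3, varied most and are described with the members that differed in a single library.

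The end of the list is not a break in the levels. The last 5 members were SRUG_02258, SRUG_03037, SRUG_04038, SRUG_02294 and SRUG_01017, with means of 720.2, 715, 708, 708 and 699.9 FPKM. The first 5 models outside were SRUG_05438, SRUG_01198, SRUG_02501, SRUG_06690 and SRUG_07276, with 699.4, 699.1, 699, 696 and 693 FPKM. The values of single libraries around this point ran from 174 to 1427 FPKM among these members and from 427 to 1043 among these models outside, so which of them belong to the list was decided by much less than the spread between libraries. SRUG_05238, another non-heme peroxidase of the study, lay at rank 166 with 674 ± 216 FPKM (SD, n = 3) and would be a member if library 1 were left out.

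Ranked within each library, 98 members were among the 150 highest models of all 3 libraries, 41 of 2 libraries and 11 of a single library. Each library taken alone kept 127, 124 and 136 of the members. The other 56 models that entered the 150 highest of at least 1 library were not members, and 0 models outside the list did so in all 3. With 1 library left out in turn, 13, 12 and 9 members were lost without libraries 1, 2 and 3, and 122 members stayed on all 3 of these lists. SRUG_09122, at rank 56 the highest member to rest on 1 library, was lost without library 2. Among the members, Pearson's r of log2(FPKM + 1) across the 150 genes was 0.878 between libraries 1 and 3, 0.642 between 1 and 2 and 0.659 between 2 and 3. Genes are not independent replicates, and the list spans a narrow range of levels.

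The spread between libraries was measured as the coefficient of variation (CV, the SD divided by the mean) of the FPKM. Its median was 0.232 over the members, 0.240 over the 150 models ranked next and 0.1997 over the 9784 models with a mean FPKM of at least 1. A CV under 0.1 was found for 18 members (12.0%), against 18.9% of these 9784 models, and a CV over 0.5 for 14 members (9.33%), against 9.41%. The 9784 models include many with low counts. Of the 8286 models with at least 200 counts in every library, 21.6% were under 0.1 and 5.14% over 0.5, with a median of 0.180. Of the 150 models ranked next, 16% were under 0.1 and 8.67% over 0.5. Over the first, the middle and the last 50 members the median CV was 0.211, 0.240 and 0.240, so the level within the list went with little difference in spread. Every member had at least 1464 counts in each library, so counting error was small beside these medians, but less so beside the smallest CVs of the list. With 1 library left out and the list chosen again, the median CV was 0.168 without library 1, 0.179 without library 2 and 0.274 without library 3. Each of these CVs comes from 2 values, so they are not directly comparable with the 0.232 over 3 libraries.

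How the members compare with other models depended on the measure and on the models set beside them. The BCV per gene had a median of 0.283 over the members and 0.261 over the models with a mean FPKM of at least 1 in edgeR. In DESeq2 the order was reversed, with 0.234 over the members and 0.244 over those models. Over the 8286 models with at least 200 counts in every library, the medians were 0.249 in edgeR and 0.233 in DESeq2. Against this set the members were not lower in either. No test was made of these differences, and no order is given as a property of the members.

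**Figure D2:**
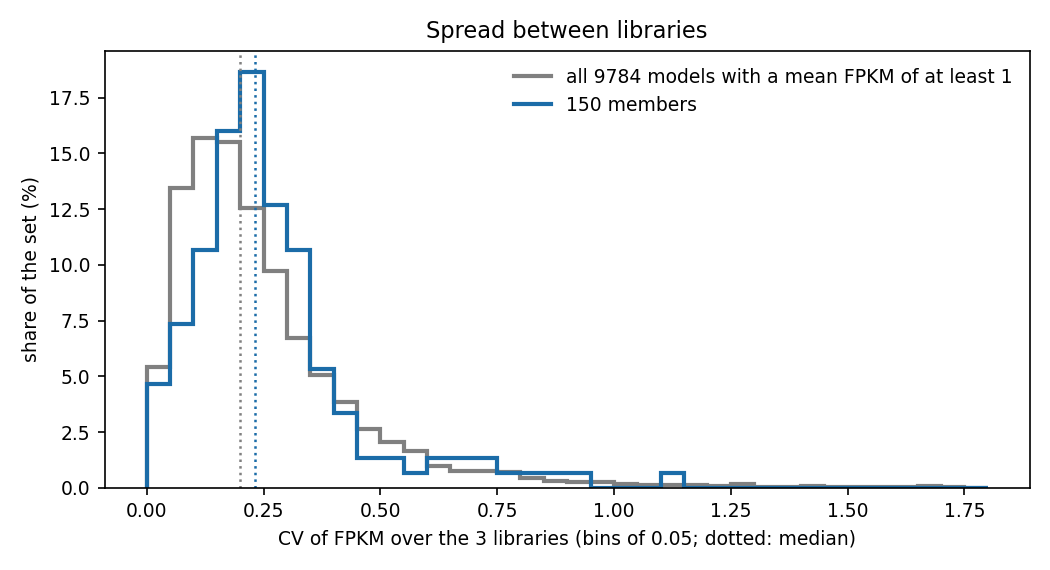
Share of each set in percent against the CV of the FPKM over the 3 libraries, in bins of 0.05, for the 150 members and for the 9784 models with a mean FPKM of at least 1; dotted lines are the medians, 0.232 and 0.1997. The members are fewer in the bins under 0.1, while both sets have a long right tail.

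The 5 members with the lowest CV of FPKM varied by a few percent on that scale. SRUG_11501 had 817, 798 and 787 FPKM in libraries 1, 2 and 3, a CV of 0.0188. SRUG_01020 had 927, 904 and 889 FPKM, and SRUG_08304 had 1559, 1562 and 1638. SRUG_05147 and SRUG_00979 followed with CVs of 0.0330 and 0.0353. These 5 models lay on different parts of the list, at ranks 125, 106, 40, 115 and 12. A small CV of FPKM also depends on the scaling, because on the FPKM scale the median model was higher by 0.15 (log2) in both libraries 2 and 3 than in library 1. The same medians were 0.00 and 0.02 after TMM normalization, a scaling that assumes that most genes keep their level. On that scale the CVs of SRUG_11501, SRUG_01020 and SRUG_05147 were 0.0770, 0.0784 and 0.0930, and those of SRUG_08304 and SRUG_00979 were 0.0525 and 0.0536. SRUG_02998, SRUG_06374 and SRUG_02103, named after their values were seen, were then steadier than all 5, with CVs of 0.0309, 0.0453 and 0.0514.

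The members' median log2 difference between libraries 2 and 1 was 0.02 on the FPKM scale and -0.14 after TMM normalization. The 150 models ranked next had the same 0.02 and -0.14, so this was not particular to the list. Within the list it was not uniform, with -0.15, 0.02 and -0.22 after TMM normalization over the first, the middle and the last 50 members. Between libraries 3 and 1 the members' median was 0.17 and 0.03 on the 2 scales. Library 1 was the highest library for 49 members, library 2 for 57 and library 3 for 44, and the lowest for 63, 61 and 26. The highest library was library 1, 2 and 3 for 32.7%, 38% and 29.3% of the members. Over the models with a mean FPKM of at least 1 it was so for 24.1%, 43.3% and 32.5%. Of the models with a mean FPKM of at least 1, library 1 was the lowest for 48.7%, library 2 for 31.1% and library 3 for 20.2%, against 42%, 40.7% and 17.3% of the members. Library 2 was the lowest for 38.7% of the 150 models ranked next.

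A library at least 2 times above or below both others was found for 12 members (8%), against 10.5% of the 9784 models with a mean FPKM of at least 1. In library 2 alone, 7 members (4.67%) were at least 2 times lower, against 2.11% of those models, and 2 members (1.33%) were at least 2 times higher, against 4.37%. In library 1 alone, 3 members (2%) were higher, against 0.828%, and 0 were lower, against 2.52%. After TMM normalization 6 members (4%) were higher in library 1 alone, against 1.34%, and 15 members in all had a library apart, against 10%. In library 3 alone, 1 member (0.667%) was higher, against 1.39%, and 0 were lower, against 0.613%. The 7 members low in library 2 were all past 3 times as well, a fold that 0.634% of the 9784 models reached there. These are shares of replicate libraries with no test, and the 12 members were named after their values had been seen. The 9784 models include many with low counts, and shares over better-counted models are not given here. The members are thus not shown to be apart less often than models with counts like theirs.

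The 7 members low in library 2 had at least 1464 counts there. In libraries 1 and 3 they were among the 150 highest models, except SRUG_04038, which was at rank 233 in library 1 and is a member through library 3. SRUG_04355, model 547 of contig 4, had 2398, 165 and 3028 FPKM in libraries 1, 2 and 3, from 35275, 2314 and 41560 counts, and was 14.6 times lower in library 2 than in library 1. SRUG_11438, model 125 of contig 17, had 911, 68.8 and 1631 FPKM, the lowest value of any member in any library. It fell to rank 2534 in library 2, the only member outside the first 1000 models of a library. After TMM normalization the fold to the nearer library was 16.2 and 14.7 for these models.

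SRUG_03430, model 778 of contig 3, had 2607, 560.4 and 3695 FPKM and was at rank 17 and 13 in libraries 1 and 3 but at rank 213 in library 2. SRUG_05810, model 65 of contig 6, had 1443, 248 and 1875 FPKM. SRUG_03698, model 1048 of contig 3, had 967, 176 and 1136 FPKM. These 3 models were 4.65, 5.82 and 5.51 times lower in library 2 than in library 1.

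SRUG_02258, model 954 of contig 2, had 773, 178 and 1210.4 FPKM. SRUG_04038, model 226 of contig 4, had 523, 174 and 1427 FPKM and was the member that was both lowest in library 2 and at least 2 times higher in library 3 than in the others. All 7 had the order library 3, library 1, library 2 from high to low. Library 2 was last by the rule that named them. Library 3 was above library 1 for 85 of the 150 members and for at least 6259 of the 9784 models with a mean FPKM of at least 1. These 7 members were not neighbours, with 2 on contig 3, 2 on contig 4 and 1 each on contigs 2, 6 and 17. SRUG_03940 and SRUG_04473, outside the list at ranks 160 and 169, were chosen after their values were seen and had the same order. They had 781, 166 and 1100.04 FPKM, and 773, 150.9 and 1094 FPKM, in libraries 1, 2 and 3. Both were at least 2 times lower in library 2 alone, so this drop was not confined to the members. Its share among the 150 models ranked next is not given here.

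The members high in a single library had no common place either. SRUG_09122, model 619 of contig 10, had 582, 3167 and 402 FPKM, the highest CV of the list at 1.12, and its library 2 value was 5.44 times the next. SRUG_09711 on contig 11 had 878, 2142 and 692 FPKM. SRUG_03036 on contig 3 had 5751, 1366 and 2102 FPKM, and its mean of 3073 ± 2348 (SD, n = 3) was carried by library 1. SRUG_01148 on contig 1 and SRUG_11028 on contig 15 were 2.30 and 2.16 times higher in library 1 than in the next library. All 12 kept a fold of at least 2 after TMM normalization. In the spread of the counts, library 2 stood apart over all models too, and its part in these values was not tested.

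**Figure D3:**
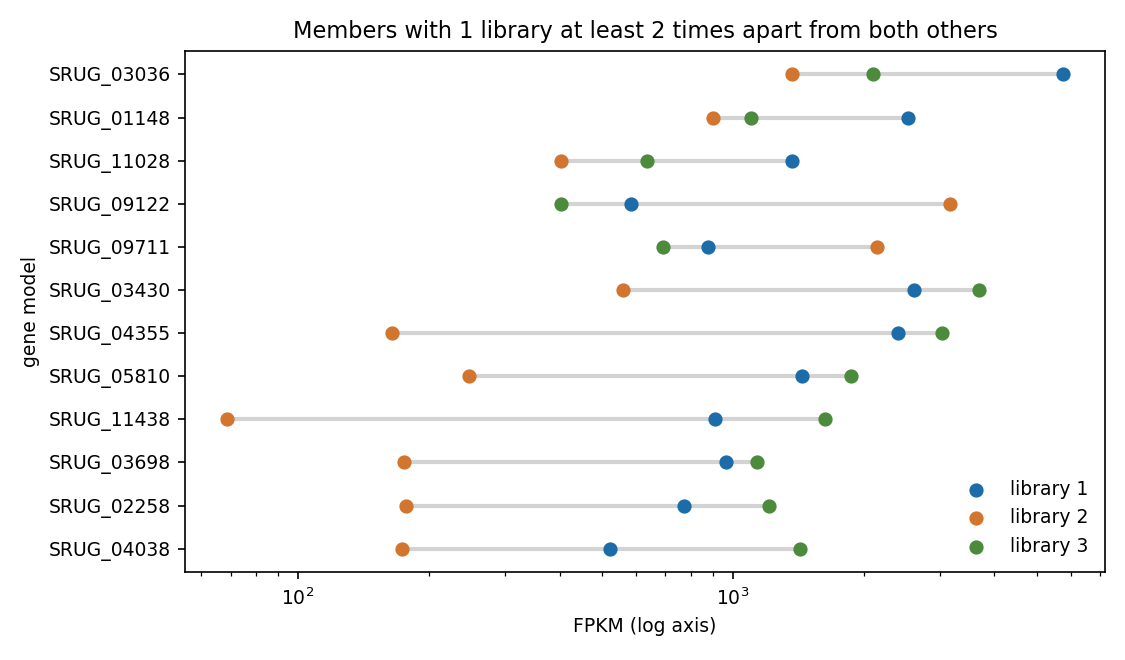
FPKM on a log axis of the 12 members with 1 library at least 2 times above or below both others; each point is a library and the grey bar spans the 3 values. In the 7 lowest rows, library 2 lies between 68.8 and 560.4 FPKM, under libraries 1 and 3.

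The ratio of counts to FPKM grows with the gene length used for the FPKM, and was set against that of the median of the 8286 models with at least 200 counts in every library. By this measure most members were short. Their median was 0.426 of the median model, 134 of the 150 (89.3%) were under 1 and 95 (63.3%) were under 0.5, against 50% and 14.9% of the 8286 models. Over 1.5 were 5 members (3.33%), against 22.1%. The FPKM that chose the members is itself divided by this length, so the shift is a description of the list and not a test. The 150 models ranked next had a median of 0.462. In the members, Spearman's rho between mean FPKM and this ratio was -0.19 (n = 150), and in the 8286 models it was -0.35, as a description across genes that share the length in both measures.

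The shortest member was SRUG_01970, with a ratio of 0.150. Its 5012, 5614 and 7432 counts in libraries 1, 2 and 3 gave a mean of 905 FPKM, but placed it only at rank 1109 by TMM-normalized CPM, a scaling for depth without correction for length. SRUG_06769, at 5734 FPKM the eighth member, had a ratio of 0.160 and ranked 42 by CPM. SRUG_02161, SRUG_03036 and SRUG_11248 followed with ratios of 0.165, 0.178 and 0.185. At the other end, SRUG_01117 had a ratio of 2.63 and SRUG_03641 of 2.36. With 781.7 and 1473 FPKM they stood at ranks 133 and 48, but at ranks 13 and 6 by CPM. SRUG_02258, SRUG_09048 and SRUG_03006 had ratios of 1.80, 1.59 and 1.56. The 16 members over 1 held 8.84%, 7.12% and 7.54% of the members' FPKM and 23.1%, 18.6% and 20.5% of their counts in libraries 1, 2 and 3.

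Ranked by TMM-normalized CPM, 86 of the 150 members stayed among the 150 highest and 64 did not. The members that stayed had a median ratio of 0.573, those that did not 0.329, and the 64 models that replaced them 1.53. SRUG_03729, the second by FPKM, was first by CPM, with 279087, 401583 and 306505 counts, whereas SRUG_08403 was at rank 5. This ranking differs from that by FPKM both in the length correction and in the scaling between libraries. SRUG_08403, SRUG_03729, SRUG_11169, SRUG_06302 and SRUG_01710 were among the first 10 by FPKM and the first 5 by CPM.

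**Figure D4:**
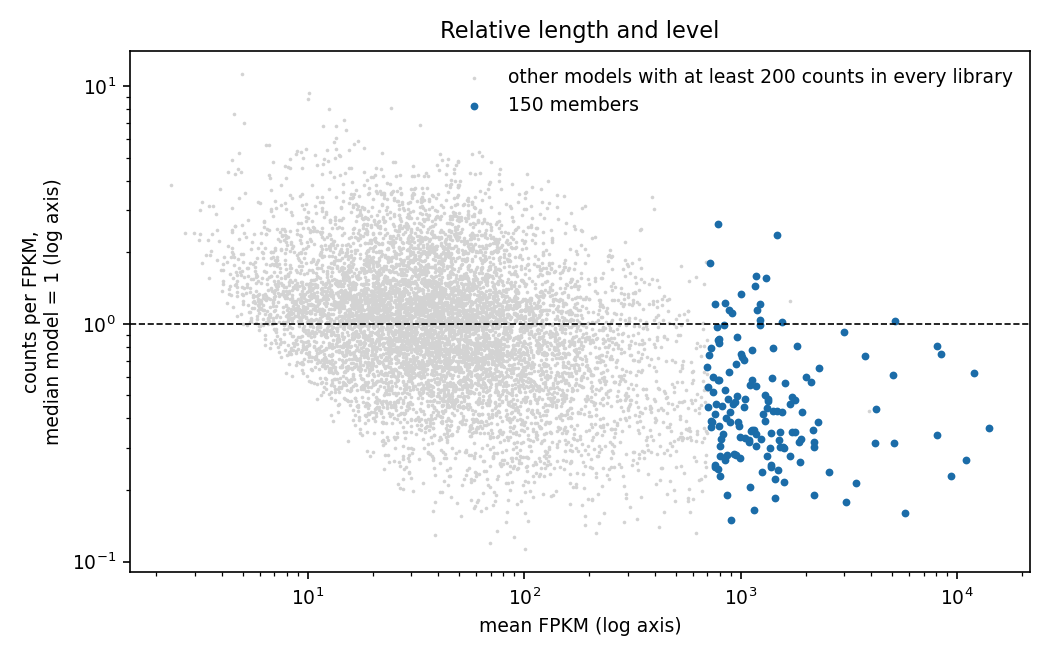
Counts per FPKM relative to the median model against mean FPKM, both on log axes, for the 150 members and for the other models with at least 200 counts in every library; the dashed line marks the median model. The empty lower left is set by the minimum of 200 counts, and 134 of the 150 members lie under the line.

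The members were spread over 19 of the 21 contigs. Contig 2 had the most, with 24 of its 1344 models (1.79%), and contigs 20 and 21, with 32 and 12 models, had 0. The highest share was on contig 17, with 6 of 195 models (3.08%), and the lowest share of the contigs with a member on contig 13, with 1 of 333 (0.300%). By level the order was another. Contig 3 carried 17.2% of the members' FPKM from 18 members, and contig 9 carried 6.35% from 4, among them SRUG_08403. Contig 17 carried 1.94%, as none of its members was above the 1103 FPKM of SRUG_11406. The share of contig 16 was 4.002%, 6.04% and 3.59% in libraries 1, 2 and 3, and SRUG_11169, its highest member, was also highest in library 2.

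Few members were neighbours in the order of models. Another member was the next model for 8 of them (5.33%), as 4 separate pairs, whereas 2.52% of all models had a member next to them. Within 5 model numbers the shares were 18.0% and 11.4%, and within 10 they were 34% and 21.0%. No 3 members were consecutive. Between successive members on a contig the median distance was 36 model numbers, from 1 to 261. Of the members, 3 (2%) lay within 10 models of a contig end, against 3.51% of all models, and SRUG_07059, at 1872 ± 606 FPKM (SD, n = 3), is model 1 of contig 8.

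In 3 of the 4 pairs both genes had the same order of libraries. The share of all neighbouring models with the same order is not given here, so this count is no result about the pairs. SRUG_01519 and SRUG_01520, models 205 and 206 of contig 2, had 753, 965 and 691 FPKM and 1151, 1530.3 and 1082 FPKM in libraries 1, 2 and 3. SRUG_07132 and SRUG_07133, models 76 and 77 of contig 8, had 652, 1076 and 961 FPKM and 799, 1415 and 1146 FPKM. All 4 of these genes were highest in library 2, as were 38% of the members and 43.3% of the models with a mean FPKM of at least 1. Their length ratios were between 0.239 and 0.427, against a median of 0.426 over the members. In the remaining pairs one gene was well above the other. SRUG_03036, at 3073 FPKM, lay next to SRUG_03037, at 715 ± 149 FPKM (SD, n = 3) from 857, 559 and 730 FPKM, with the order library 1, library 3, library 2 for both. The ratio of the 2 genes was 6.71 in library 1 but 2.44 and 2.88 in libraries 2 and 3. SRUG_06768, at 990 ± 204 FPKM (SD, n = 3), lay next to SRUG_06769, at 5734, with ratios of 8.14, 5.62 and 4.26 in libraries 1, 2 and 3. Both were highest in library 2, but the lowest value was in library 1 for the former and in library 3 for the latter. Neighbouring copies of a gene could share reads, and since sequences were not used here, whether these pairs are alike was not tested.

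The 288 models next to a member that were not members themselves had a median of 38.2 FPKM, against 22.9 over the 11312 other models outside the list. The difference was seen in each library, with 37.9 against 20.002 in library 1, 40.7 against 24.2 in library 2 and 38.2 against 23.0 in library 3. A mean FPKM of at least 1 was reached by 92.4% of the neighbours and 82.8% of the others. The neighbours were thus far closer to the typical model than to the members, and 22 of them were under 1 FPKM. SRUG_11529 and SRUG_01647, left out of the list, had no member next to them either.

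**Figure D5:**
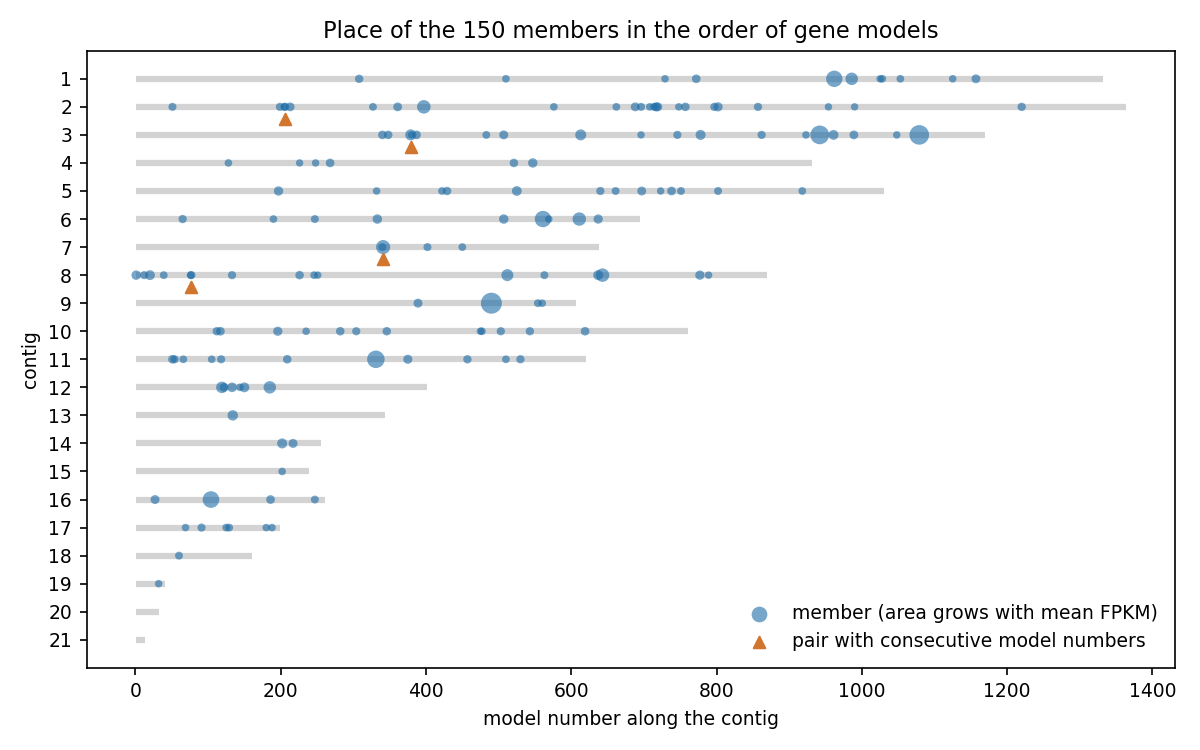
Place of the 150 members by model number along each of the 21 contigs (grey bars); the area of a circle grows with mean FPKM, and triangles mark the 4 pairs with consecutive model numbers. Members lie on 19 contigs, with single members of high level apart from each other and 0 on contigs 20 and 21.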

How the data were processed

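The authors deposited whole-number counts per gene model without normalization and FPKM values that they computed, in 3 libraries; fastp, HISAT2 and StringTie are named in the submitters' processing notes with no role given. The second FPKM table and the count table per transcript that the authors deposited differed from these in 0 cells. Which program counted, whether strand was used, how multi-mapping reads were handled and what total underlies the FPKM were all not given in the sources used here. Per the labels, short cDNA fragments were selected for the libraries. Low counts were mostly even (67.7% of counts from 1 to 10). Contig and model numbers were read from the model names, in which 209 numbers are skipped. Columns were matched to libraries by the bracketed label of each title.

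Members are the 150 models with the highest mean FPKM after leaving out SRUG_11529 and SRUG_01647. The members, lists and rules were chosen with earlier results of these data known. With 1 group no differential test was made. Counts were normalized with TMM, and BCV was estimated per gene in an intercept-only design after the default filter on low counts, in edgeR 4.0.16 (R 4.3.3); DESeq2 1.42.0 was the alternative. CV, relative length (counts per FPKM), fold rules and neighbour counts were computed with SciPy 1.17.1, NumPy 2.4.6 and pandas 2.3.3 under Python 3.11.15 (plots, matplotlib 3.10.9). The edgeR BCV, the CV, the fold rule and the neighbour count were tested on simulated data, and the relative length and DESeq2 steps were not. Named are the first 20 members, the 5 highest and 5 lowest by CV and by relative length, every member next to another, and the 5 models on each side of the end of the list; further names are said to be chosen later or stand for a count.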

Additional observations from a re-analysis of the deposited data

How the results depend on the processing

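The share of FPKM on the list was 31.85% with SRUG_11529 and SRUG_01647 kept, 26.9% for the 150 highest models by CPM, and 26.7% and 35.1% for the 100 and 200 highest by FPKM. The share of counts was 20.4%, 22.5%, 16.5% and 22.6% under the same alternatives, and between 19.7% and 20.3% with a library left out and the list chosen again. In the same way the median CV lay between 0.168 (without library 1) and 0.274 (without library 3), the median BCV between 0.230 and 0.344, with its highest value without library 3 and its lowest without library 2, and the median relative length between 0.397 and 0.424; it was 0.452 against the median of all models with a mean FPKM of at least 1. The CVs with a library left out come from 2 values each and are not directly comparable with that over 3 libraries. TMM, DESeq2 size factors, TPM and both pseudocounts (1 and 0.1) left the median CV between 0.218 and 0.233. Members with a member close by numbered 27 within 5 model numbers, and 2 for the 100 highest models; they stayed at 6 to 12 under the other alternatives, including the next listed model, an alternative chosen after seeing the data. Ranking by CPM kept 86 members, the fewest; the other rankings kept at least 124. A fold of 1.5 put 44 members apart in 1 library and a fold of 3 put 8. Leaving out a library could not be applied to this fold rule, which needs 3 libraries. No paired analysis was possible because there is 1 group. Against the 9784 models with a mean FPKM of at least 1, the order by median BCV turned between edgeR and DESeq2. It did not turn against the 8286 models with at least 200 counts in every library, and the cause was not tested.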
